A study of Mus musculus with 2 samples.

Results

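Glycolysis turns glucose into pyruvate and lactate, and the hypoxia-inducible factors raise the output of many of its genes when oxygen is short. The genes described here are 36 such genes, chosen by gene symbol: glucose transporters, glycolytic enzymes, lactate enzymes and transporters, regulators of pyruvate entry into mitochondria, and hypoxia-response regulators and targets. All 36 were present among the 24421 rows of the deposited count table. The table holds 2 ovary libraries from 8-week-old C57BL/6J mice, 1 from an H19KO ovary sample, whose allele the labels give as H19(Δ3), and 1 from a wild type. The mice received no treatment, and the number of animals behind each library is not given in the sources used here. H19 is an imprinted long noncoding RNA, and the study asked which ovarian genes it regulates.

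With 1 library per genotype there is no replicate spread, so no p-value is given and every difference describes these libraries and not the genotypes. Levels are CPM, the count per 1000000 counts of the library after TMM scaling, which sets the libraries to a common effective size. Each log2 ratio is knockout over wild type and carries a 95% exact binomial interval that covers counting error only. Calls beyond 2-fold or 1.5-fold require a mean of 1 CPM or more and the whole interval past the limit.

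The H19KO library held 23041225 counts and the wild-type library 23335131. H19 had 0 counts in the H19KO library, against 672 in the wild type, so it was at least 223-fold lower if 0 is taken to allow 3 counts and 672 is taken as exact. Both libraries held defining ovarian transcripts: all 12 granulosa cell markers and all 10 oocyte markers passed 1 CPM. Summed marker levels in the H19KO library were 4288 CPM for granulosa cells, 369 CPM for oocytes and 3944 CPM for stroma. In the wild type they were 5589 CPM for granulosa cells, 458 CPM for oocytes and 2816 CPM for stroma. The interval lay below 0 for 10 of 12 granulosa and 7 of 10 oocyte markers, and above 0 for 6 of 7 stromal markers. Among all genes of at least 1 CPM, 22.2% lay above 0 and 24% below. The granulosa markers differed in size: Cyp19a1 (log2 ratio -1.60) and Ihh (-1.23) were lower beyond 2-fold, where 0.388% of all genes were, while Nr5a2 and Wt1 were both at 0.04. In whole ovary RNA, fewer cells of a type and less RNA per cell cannot be told apart. The 10 theca and interstitial markers summed to 17651 CPM in the H19KO library and 18017 CPM in the wild type. Of the 9 that passed 1 CPM, 6 had an interval below 0 and 2 above. Cyp17a1 among them was lower beyond 2-fold, with 2834 counts in H19KO and 11243 in wild type (log2 ratio -1.98). The 5 smooth muscle markers summed to 1697 CPM in the H19KO library and 1358 CPM in the wild type, all with an interval above 0, and the 7 of the corpus luteum to 3953 CPM in the H19KO library and 5328 CPM in the wild type, 6 with an interval below 0. Of 4 oviduct markers only Ovgp1 passed 1 CPM, with 134 counts in H19KO and 33 in wild type. Its log2 ratio of 2.01 (interval 1.47 to 2.63) was higher beyond 2-fold, where 0.61% of all genes were. Wnt7a had 13 counts in H19KO and 5 in wild type, Foxj1 had 3 in H19KO and 11 in wild type, and Pax8 had 9 in each. The part of these cell markers in the results below was not tested. Skeletal muscle, which is rich in glycolytic enzymes, left little trace, since its 6 markers summed to 2.03 CPM in the H19KO library and 1.51 CPM in the wild type, with Myh4 at 0 in both.

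In textbook outline, glucose enters cells through SLC2A transporters, is phosphorylated by hexokinases, split by aldolase and oxidised to pyruvate. Pyruvate is then either reduced to lactate or passed to the mitochondrial pyruvate dehydrogenase complex. Granulosa cells are known for active glycolysis, and the oocyte, which uses glucose poorly, takes up pyruvate that they supply. The alpha subunits HIF1A and EPAS1 are hydroxylated by the EGLN enzymes when oxygen is present and are then degraded, so their activity is set mainly at the protein level.

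The glycolytic programme was close to equal in the libraries, with small differences in both directions and a single gene beyond 1.5-fold. Ddit4, an inhibitor of mTORC1 signalling that low oxygen and glucocorticoids induce, was lower in the H19KO library. The mitophagy gene Bnip3, the pyruvate dehydrogenase kinases Pdk1 and Pdk4 and both main hexokinases were higher by less than 1.5-fold, whereas aldolase A, Epas1, Slc2a1, Pfkfb3 and Pfkfb4 were lower by less than 1.5-fold.

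Of the 36 genes, 35 had a mean of at least 1 CPM, the exception being Eno1. None of the 35 was higher beyond 2-fold, where 0.61% of all 13928 genes of at least 1 CPM were, and none was lower beyond 2-fold, where 0.388% of all genes were. At 1.5-fold, none was higher against a background of 1.8%, and 1, Ddit4, was lower against a background of 1.21%. This single gene, 2.86% of the 35, is not read as a result about the group.

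Asked only whether the counting interval excluded equality, 19 of the 35 lay above 0 and 7 below it, with 9 spanning it. Among all genes of at least 1 CPM, 22.2% had an interval above 0 and 24% one below. Abundant genes have narrower intervals, so the same was counted at a mean of at least 20 CPM, a minimum chosen after the values were seen. There 17 of 27 members lay above 0 and 6 below, against backgrounds of 25.8% and 29.2%. At that minimum none was beyond 2-fold (backgrounds 0.358% higher and 0.215% lower), none was higher beyond 1.5-fold against 1.27%, and Ddit4 was lower against 0.956%. The median log2 ratio of the 35 genes was 0.07, beside -0.01 for all genes, and their lower and upper quartiles were -0.14 and 0.26. Summed over all 36, the genes took 5431 CPM in the H19KO library and 5183 CPM in the wild type.

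**Figure D1:**
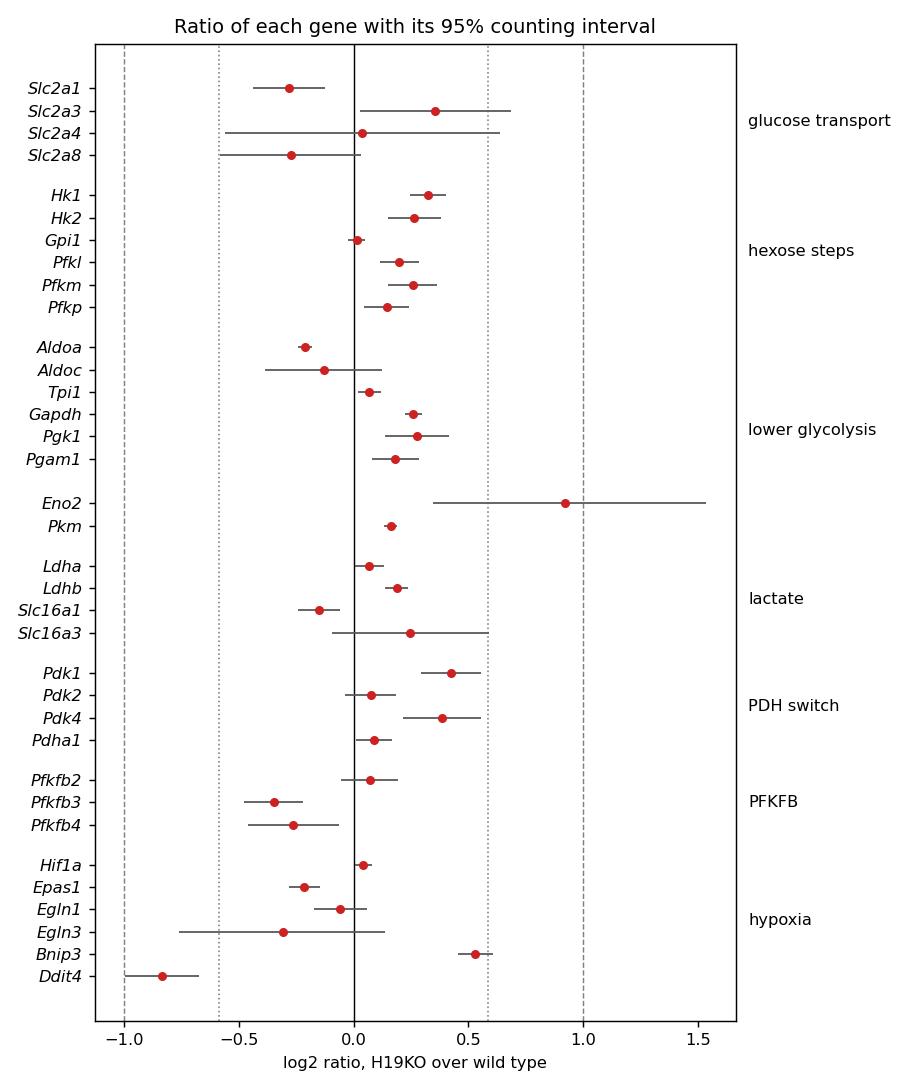
Log2 ratio of H19KO over wild type for the 35 genes of at least 1 CPM, grouped by role; bars are 95% counting intervals from 1 library per genotype, dotted lines mark 1.5-fold and dashed lines 2-fold. Ddit4 at -0.83 is the only gene whose whole interval lies beyond a dotted line.

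Among the oxygen-sensing regulators, Hif1a was abundant and nearly equal. It had 11775 counts in H19KO and 11500 in wild type, or 509 CPM in H19KO and 495 CPM in wild type, for a log2 ratio of 0.04 whose interval only just excluded 0. Epas1, which encodes the related alpha subunit HIF-2 alpha and is known as prominent in endothelium, had 3309 counts in H19KO and 3863 in wild type (log2 ratio -0.22, interval -0.28 to -0.15). The 8 endothelial markers also had a lower sum, 602 CPM in the H19KO library against 682 CPM in the wild type. Of these markers, 4 had an interval below 0 and 1 above, against 24% of all genes below and 22.2% above. The part of the endothelial markers in the Epas1 value was not tested. Per kilobase of exons, Hif1a made up 77.1% (76.4 to 77.8) of the sum of these alpha subunit transcripts in the H19KO library, against 73.8% (73.1 to 74.5) in the wild type. The intervals of this share and of the later ones cover counting error only, and the shares depend on the exon lengths used.

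The prolyl hydroxylase gene Egln1, whose product marks the alpha subunits for degradation, had 1187 counts in H19KO and 1243 in wild type (log2 ratio -0.06, interval -0.17 to 0.06). Egln3, a hydroxylase that is itself induced by hypoxia, was scarce, with 77 counts in H19KO and 96 in wild type (log2 ratio -0.31, interval -0.76 to 0.14). Neither interval excluded equality. At this depth a difference in Egln3 of the size seen could not be told from counting error.

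Ddit4, at chr10:59949669-59951834 on the minus strand of mm10, had 483 counts in H19KO and 866 in wild type. That is 20.9 CPM in H19KO against 37.2 CPM in wild type, for a log2 ratio of -0.83. The interval reached from -0.67 almost to the 2-fold limit, and the wild-type level was 1.78 times that of H19KO. Of all 13928 genes, 1.54% had a ratio as low or lower. No 76-base stretch of its transcript occurs exactly in another annotated gene, and no annotated exon overlaps it on either strand. Copies outside the annotation and matches with mismatches were not searched.

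Bnip3, at chr7:138890836-138909519 on the minus strand, encodes a mitochondrial receptor for mitophagy, is a classical hypoxia target and was on the other side of 0. It had 3462 counts in H19KO and 2410 in wild type, or 150 CPM in H19KO and 104 CPM in wild type, for a log2 ratio of 0.53 with an interval of 0.46 to 0.61. As high or higher were 5.47% of all genes. Of the 76-base stretches of its transcript, 30.3% also occur in annotated genes elsewhere in the genome and 17.2% in the antisense gene Gm45507, which has no row in the table, so the Bnip3 count is less certain than that of Ddit4. The direction was therefore not shared by these hypoxia-inducible members, 1 of which was lower and the other higher.

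The promoters of these genes of opposite sign are shown with those of Ldha, a well-studied hypoxia target with a ratio near 0, and of Pdk1, the kinase gene with the highest ratio, because all carry the hypoxia response element core. Each line is the 250 bases before a RefSeq start (build GRCm38.p6), read 5′ to 3′ on the gene's strand. Capitals mark the cores ACGTG or GCGTG on either strand, where the reverse strand shows as CACGT or CACGC. The windows are chr10:59951771-59952020 (minus) for Ddit4, chr7:138909507-138909756 (minus) for Bnip3, chr7:46845554-46845803 (plus) for Ldha and chr2:71872974-71873223 (plus) for Pdk1. The Ddit4 window was to be shown by rule and the other 3 were chosen after their values were seen.
Ddit4 promoter: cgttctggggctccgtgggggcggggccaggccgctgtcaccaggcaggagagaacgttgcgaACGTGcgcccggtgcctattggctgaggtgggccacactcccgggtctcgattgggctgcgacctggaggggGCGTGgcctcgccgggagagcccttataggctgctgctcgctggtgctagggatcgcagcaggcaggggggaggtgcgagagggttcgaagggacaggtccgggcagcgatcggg
Bnip3 promoter: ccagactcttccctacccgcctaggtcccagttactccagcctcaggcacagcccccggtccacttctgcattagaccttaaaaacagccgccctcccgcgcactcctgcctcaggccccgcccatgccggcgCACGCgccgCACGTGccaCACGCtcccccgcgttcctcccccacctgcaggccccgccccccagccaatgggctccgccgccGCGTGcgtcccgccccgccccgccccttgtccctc
Ldha promoter: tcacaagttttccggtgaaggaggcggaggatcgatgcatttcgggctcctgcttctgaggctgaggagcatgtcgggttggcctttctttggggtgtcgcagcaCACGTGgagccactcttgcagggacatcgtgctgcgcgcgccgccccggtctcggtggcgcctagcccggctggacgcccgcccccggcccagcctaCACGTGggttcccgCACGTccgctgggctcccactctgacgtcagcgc
Pdk1 promoter: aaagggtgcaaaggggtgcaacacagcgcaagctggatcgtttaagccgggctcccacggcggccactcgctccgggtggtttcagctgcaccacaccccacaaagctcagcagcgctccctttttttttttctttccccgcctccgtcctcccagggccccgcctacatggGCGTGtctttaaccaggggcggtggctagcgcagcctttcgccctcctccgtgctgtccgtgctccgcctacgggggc

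Ldha has a further RefSeq start whose window held 1 core, and Pdk1 one whose window held 0. In the windows shown, Ddit4 held 2 cores, Bnip3 5, Ldha 5 and Pdk1 1. The palindrome CACGTG, an E-box, holds ACGTG on both strands and is counted as 2 cores; it occurs once in the Bnip3 window and 2 times in the Ldha window. The relation of core number to the ratios was not tested. A match is a description of letters and shows no binding.

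RefSeq promoters were matched by symbol for 33 of the 36 genes, all but Epas1, Slc2a3 and Slc2a4, with several starts for 11 genes and 49 windows in all. Of the 49 windows 40, or 81.6%, held ACGTG or GCGTG, against 38.6% of all 32851 promoter windows of that length. ACGTG was in 44.9% of the members' windows and 16.6% of all, GCGTG in 55.1% of the members' and 28.2% of all, and CACGTG in 16.3% of the members' and 6.02% of all. Base composition differed too, with a median of 60.4% G and C in the members' windows and 52.4% in all. Among windows of at least 60% G and C, 25 of 26 from members held a core, against 63.8% of all. Below 60%, 15 of 23 did, against 28.8% of all. Several windows belong to the same gene and overlap, so the members' windows are not independent. The members were also chosen partly as genes of the hypoxia response, so the higher share of cores is not read as a result. Gpi1, Tpi1 and Eno2 were the members with a window but no core.

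The ratios of the glucose transporters differed in sign. Slc2a1, the basal transporter GLUT1 and a hypoxia target, had 621 counts in H19KO and 759 in wild type (log2 ratio -0.28, interval -0.44 to -0.13). Slc2a3, the high-affinity transporter GLUT3, had 177 counts in H19KO and 139 in wild type (log2 ratio 0.36, interval 0.03 to 0.69). These ratios have opposite signs, and the share of Slc2a1 in their per-kilobase sum was 87.9% (86.0 to 89.6) in the H19KO library, against 91.9% (90.4 to 93.2) in the wild type. The insulin-responsive Slc2a4 had only 50 counts in H19KO and 49 in wild type, and the intracellular transporter gene Slc2a8 had 163 in H19KO and 198 in wild type, with log2 ratios of 0.04 for Slc2a4 and -0.27 for Slc2a8 and intervals that spanned 0.

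The enzymes of the hexose phosphate steps had 5 of 6 intervals above 0 and none below, and their median log2 ratio was 0.23. Among all genes of at least 1 CPM, 22.2% lay above 0 and 24% below. All 6 of these genes had a mean of at least 20 CPM, a minimum at which 25.8% of all genes lay above and 29.2% below. Hk1, the housekeeping hexokinase, had 2867 counts in H19KO and 2304 in wild type (log2 ratio 0.32, interval 0.24 to 0.40). Hk2, the hexokinase induced by hypoxia and insulin, had 1320 counts in H19KO and 1105 in wild type (log2 ratio 0.26, interval 0.15 to 0.38). The hexokinases differed between the libraries by similar amounts, and Hk1 made up 60.3% (58.7 to 61.9) of their per-kilobase sum in the H19KO library and 59.3% (57.6 to 61.1) in the wild type. With the longest transcript as the length, CPM per kilobase in the H19KO library was 29.0 for Hk1 and 10.4 for Hk2. In the wild type it was 23.2 for Hk1 and 8.62 for Hk2, so the Hk1 share would be larger with that length. Glucose-6-phosphate isomerase, Gpi1, was the exception with 11608 counts in H19KO and 11561 in wild type (log2 ratio 0.01, interval -0.02 to 0.05).

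Phosphofructokinase commits glucose to glycolysis, and its 3 subunit genes were all slightly higher. The muscle-type Pfkm had 1553 counts in H19KO and 1307 in wild type (log2 ratio 0.26, interval 0.15 to 0.36). The liver-type Pfkl had 2444 counts in H19KO and 2141 in wild type (log2 ratio 0.20), and the platelet-type Pfkp 1795 counts in H19KO and 1634 in wild type (log2 ratio 0.14). All 3 intervals lay above 0 and within 1.5-fold. An opposite-strand exon of Pitrm1 overlaps Pfkp and covers 16.5% of the stretches of its transcript, and the strand setting of the counting is not given.

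Of the 8 measured genes of lower glycolysis, 6 had an interval above 0, 1 below and 1 spanning 0, against 22.2% of all genes above and 24% below. Aldoa, which splits fructose 1,6-bisphosphate and is the most abundant member per length, was the one below. It had 16931 counts in H19KO and 19703 in wild type (log2 ratio -0.21, interval -0.24 to -0.18). Its brain-type relative Aldoc had 248 counts in H19KO and 273 in wild type (log2 ratio -0.13, interval -0.38 to 0.12). Triose phosphate isomerase, Tpi1, which follows aldolase, was nearly equal at 6563 counts in H19KO and 6295 in wild type (log2 ratio 0.07, interval 0.02 to 0.12).

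The steps from glyceraldehyde 3-phosphate to pyruvate, enolase aside, were a little higher. Gapdh, the dehydrogenase often used as a reference gene, had 13713 counts in H19KO and 11511 in wild type (log2 ratio 0.26, interval 0.22 to 0.30). Pgk1, the first ATP-making kinase of the pathway, had 918 counts in H19KO and 763 in wild type (log2 ratio 0.27, interval 0.13 to 0.42). The mutase Pgam1 had 1666 counts in H19KO and 1478 in wild type (log2 ratio 0.18), and the pyruvate kinase Pkm, the last ATP-making enzyme, 21837 counts in H19KO and 19645 in wild type (log2 ratio 0.16, interval 0.13 to 0.19). In 14.6% of all genes the ratio was as high as that of Gapdh or higher. The Gapdh level in H19KO was 1.20 times that in wild type, although 80.2% of the 76-base stretches of its transcript also occur in other annotated genes.

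The neuronal enolase gene Eno2 had the largest ratio of the 35 but rested on few counts. It had 72 counts in H19KO and 38 in wild type, 3.11 CPM in H19KO against 1.63 CPM in wild type, for a log2 ratio of 0.92 with an interval of 0.34 to 1.54. The interval was 1.19 log2 units wide and reached below 1.5-fold. As high or higher were 1.85% of all genes.

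**Figure D2:**
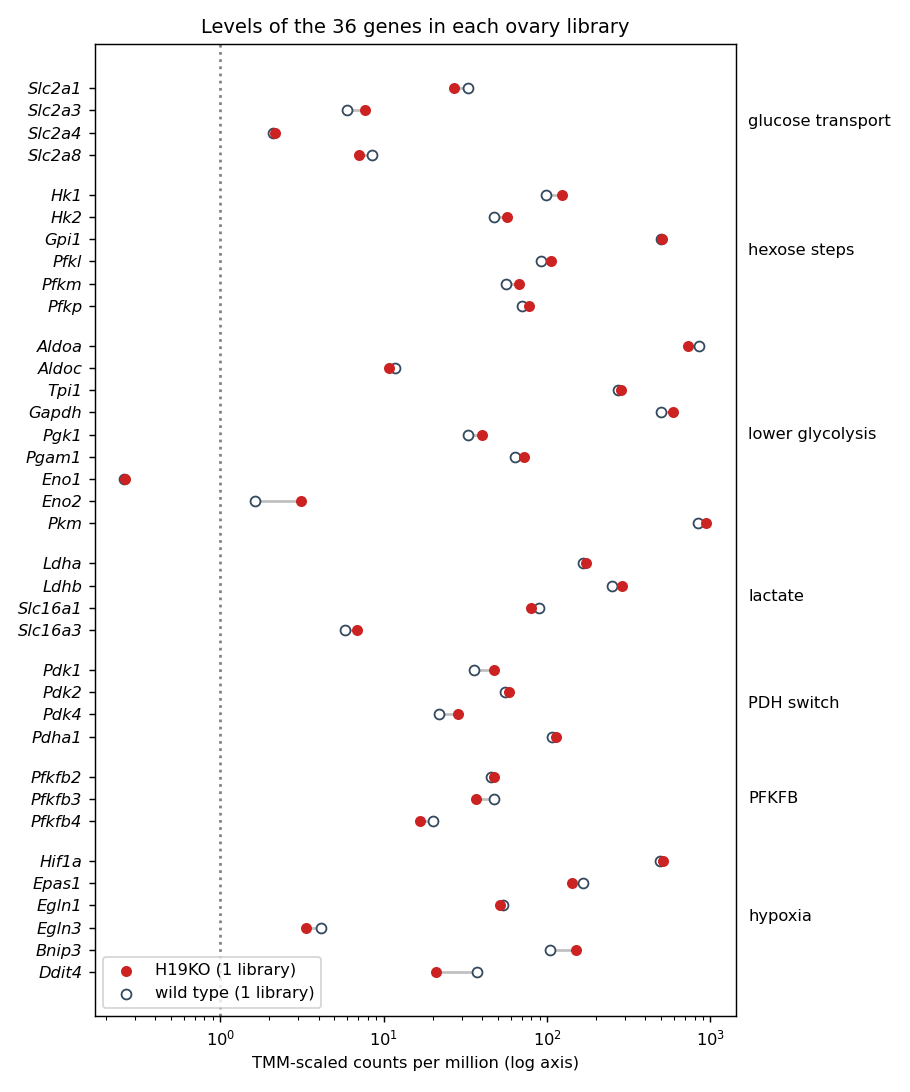
TMM-scaled CPM (log axis) of each of the 36 genes in the H19KO library (filled) and the wild-type library (open), 1 library each, by role; the dotted line is 1 CPM. Eno1, at 0.259 CPM in H19KO and 0.258 CPM in wild type, is the only gene left of it, and the widest gaps are those of Eno2, Ddit4 and Bnip3.

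Lactate dehydrogenase interconverts pyruvate and lactate, and both of its subunits were abundant. Ldhb, the heart-type subunit, had 6614 counts in H19KO and 5840 in wild type (log2 ratio 0.19, interval 0.14 to 0.24). Ldha, the muscle-type subunit and a hypoxia target, had 4027 counts in H19KO and 3861 in wild type and a log2 ratio of 0.07 whose interval only just excluded 0. With median-of-ratios scaling the intervals of Ldha and Hif1a included 0. Per kilobase, Ldhb was the larger share in both libraries, 77.6% (76.9 to 78.3) of the sum in the H19KO library and 76.1% (75.4 to 76.9) in the wild type.

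Lactate leaves cells through monocarboxylate transporters. Slc16a1, the widely expressed MCT1, had 1846 counts in H19KO and 2061 in wild type (log2 ratio -0.15, interval -0.24 to -0.06). The hypoxia-inducible exporter gene Slc16a3, or MCT4, had 158 counts in H19KO and 134 in wild type (log2 ratio 0.24, interval -0.10 to 0.59). Their ratios had opposite signs, but the interval of Slc16a3 included equality. MCT1 accounted for 93.4% (92.3 to 94.3) of their per-kilobase sum in the H19KO library and 94.9% (93.9 to 95.7) in the wild type.

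Of the 4 members that act at pyruvate dehydrogenase, 3 kinases and 1 subunit, 3 had an interval above 0 and none below. Among all genes of at least 1 CPM, 22.2% lay above and 24% below. All 4 had a mean of at least 20 CPM, a minimum at which 25.8% of all genes lay above and 29.2% below. Pdk1, a hypoxia-induced kinase that switches the complex off, had 1102 counts in H19KO and 826 in wild type (log2 ratio 0.42, interval 0.29 to 0.56). Pdk4, the kinase induced by fasting and glucocorticoids, had 660 counts in H19KO and 508 in wild type (log2 ratio 0.39, interval 0.22 to 0.56). Pdk2, the most abundant of these kinases per length, had 1353 counts in H19KO and 1292 in wild type (log2 ratio 0.07, interval -0.04 to 0.19). The Pdk1 share of the per-kilobase sum with Pdk2 was 24.9% (23.4 to 26.4) in the H19KO library, against 20.6% (19.2 to 22.1) in the wild type. Pdha1, a catalytic subunit of the complex itself, had 2641 counts in H19KO and 2496 in wild type (log2 ratio 0.09, interval 0.01 to 0.17); Map3k15 overlaps it on the opposite strand.

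The PFKFB enzymes make and break fructose 2,6-bisphosphate, the allosteric activator of phosphofructokinase, and their ratios differed. Pfkfb3, the isoform with the strongest kinase activity and a hypoxia target, had 855 counts in H19KO and 1095 in wild type (log2 ratio -0.35, interval -0.48 to -0.22). Pfkfb4 had 388 counts in H19KO and 468 in wild type (log2 ratio -0.26, interval -0.46 to -0.07). Pfkfb2, the heart-type isoform, had 1095 counts in H19KO and 1049 in wild type (log2 ratio 0.07, interval -0.05 to 0.19), so the isoforms did not share a direction. Pfkfb3 was 42.8% (40.6 to 45.1) of its per-kilobase sum with Pfkfb2 in the H19KO library, against 50% (47.9 to 52.2) in the wild type. The phosphofructokinase subunits themselves were on the other side of 0, as given above.

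As CPM per kilobase of annotated exons, the levels ranged widely along the pathway and kept nearly the same order in both libraries. In the H19KO library Aldoa led with 252, followed by Pkm with 189, Ldhb with 182, Gapdh with 143, Tpi1 with 103 and Hif1a with 86.4. In the wild type the same order held, with 291 for Aldoa, 169 for Pkm, 160 for Ldhb, 120 for Gapdh, 98.3 for Tpi1 and 83.9 for Hif1a. By this measure the Hif1a transcript stood above those of most members that encode glycolytic enzymes. Some of these, such as Pgk1, Pgam1 and Eno1, share much sequence with other genes, so their places are less certain. With the longest annotated transcript as the length, places 1 to 3 were the same in both libraries, while Gpi1 passed Hif1a. At the low end were Slc2a4, with 0.622 in H19KO and 0.606 in wild type, Eno2, with 0.662 in H19KO and 0.347 in wild type, and Eno1.

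**Figure D3:**
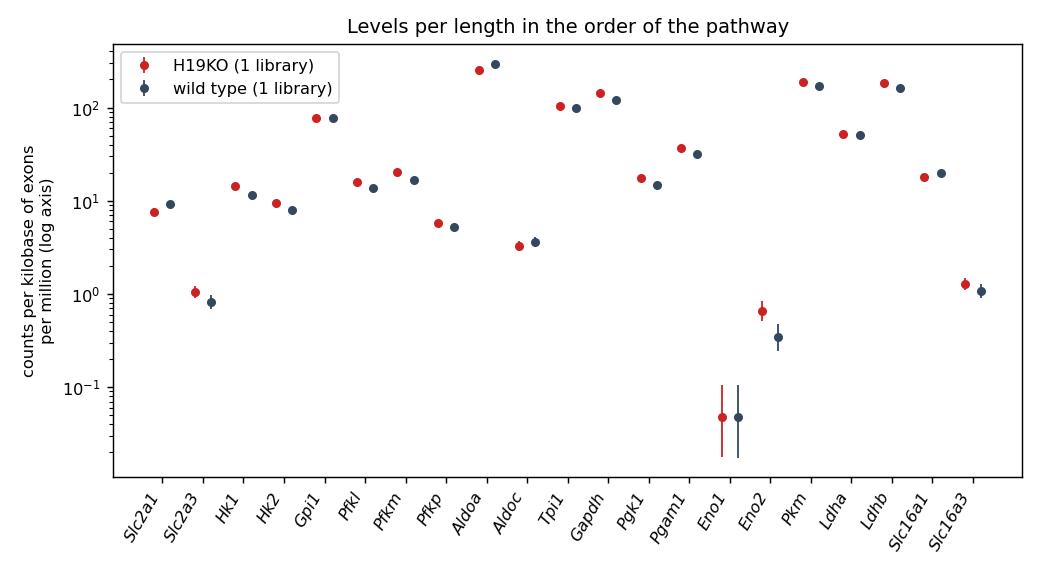
CPM per kilobase of exons (log axis) for 21 genes in pathway order from glucose uptake to lactate export, H19KO at left and wild type at right of each pair, 1 library each; bars are 95% counting intervals. Eno1 lies far below its neighbours, at 0.0482 in the H19KO library and 0.048 in the wild type, whereas Pgam1 is at 36.4 in H19KO and 32.1 in wild type.

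Eno1 encodes the main enolase of most tissues, an enzyme that glycolysis needs, but its row held 6 counts in each library. The neighbouring steps Pgam1 and Pkm had 1666 and 21837 counts in the H19KO library, against 1478 and 19645 in the wild type. Of the 76-base stretches of the Eno1 transcript, the length of the reads, 65.2% also occur in an annotated gene elsewhere, and 64% in the near-identical copy Eno1b. The Eno1b row had 220 counts in H19KO and 72 in wild type, 9.51 CPM in H19KO against 3.10 CPM in wild type, for a log2 ratio of 1.61 with an interval of 1.23 to 2.02. Even the sum of both rows stayed far below the adjacent steps, so neither row is read here as a measure of enolase transcripts. The rule for handling reads with several matches is not given in the sources used here.

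Sequence sharing touched 12 of the 36 genes. Gapdh shared 80.2% of its stretches with annotated genes elsewhere, Pgk1 67.5%, Pgam1 40.6% and Ldhb 16.4%, and the remaining 6 besides Eno1 and Bnip3 from 0.587% to 15.1%. Levels of these genes, and the order of levels above, are less certain than those of genes with no shared stretch. The transcripts of Pfkfb2, Pfkp and Pdha1 instead overlap another gene in place, over 24.3% of its stretches for Pfkfb2, 16.5% for Pfkp and 13.8% for Pdha1. The effect of dividing or dropping such reads on the ratios was not tested.

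**Figure D4:**
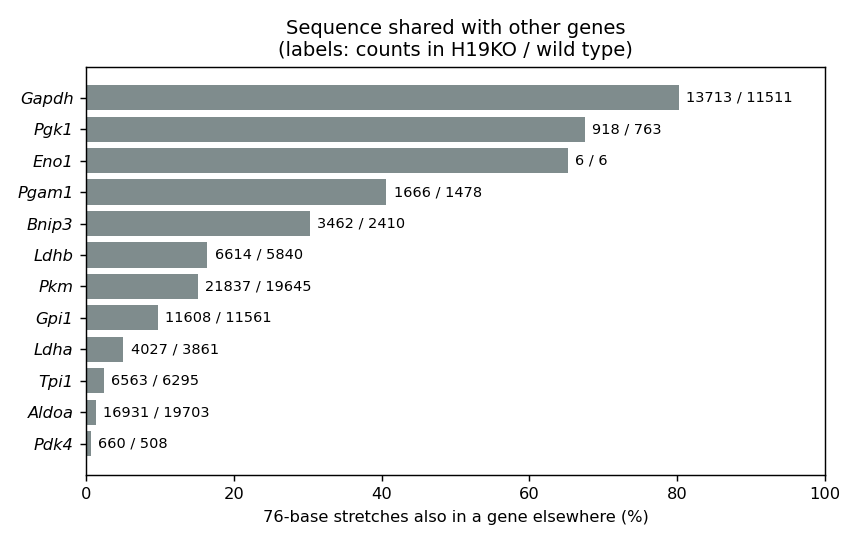
Share of the 76-base stretches of each transcript that also occur in an annotated gene elsewhere in the genome, for the 12 members with any; labels give counts in the H19KO library and the wild-type library. Gapdh, Pgk1 and Eno1 share most, at 80.2%, 67.5% and 65.2%, but only Eno1 is near 0 counts.

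Other genes of the same pathways were counted from whole lists, which, like the members, were chosen with earlier results of these data known. Of 36 other hypoxia-inducible genes of at least 1 CPM, 10 had an interval above 0 and 10 below, near the 22.2% and 24% of all genes. Their median log2 ratio was -0.01, as for all genes. None lay beyond 1.5-fold, where 1.8% of all genes were higher and 1.21% lower. Car12, a hypoxia-induced carbonic anhydrase, had 392 counts in H19KO and 228 in wild type (log2 ratio 0.79, interval 0.55 to 1.03). The chemokine receptor gene Cxcr4 had 1065 counts in H19KO and 708 in wild type (log2 ratio 0.60), and the collagen crosslinking enzyme gene Lox 1652 counts in H19KO and 1155 in wild type (log2 ratio 0.52). Adm, which encodes the vasodilator adrenomedullin, was on the other side with 112 counts in H19KO and 192 in wild type (log2 ratio -0.77, interval -1.12 to -0.43). Against 22.2% of all genes above 0 and 24% below, 5 of 12 other regulators of the factors had an interval above 0 and 2 below. The interval farthest from 0 was that of Cited2, a hypoxia-induced competitor of the factors for their coactivators, with 9406 counts in H19KO and 6858 in wild type (log2 ratio 0.46, interval 0.42 to 0.51). Arnt, the beta subunit, and Tceb2, a subunit of the VHL ubiquitin ligase, had log2 ratios of 0.16 and 0.15, and the coactivator gene Crebbp -0.15.

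Among 15 other measured genes of glucose uptake and glycolysis, 1 lay beyond 2-fold, where 0.61% of all genes were higher and 0.388% lower. Beyond 1.5-fold 2 were higher, Hk3 and Slc2a12, and 0 lower, where 1.8% of all genes were higher and 1.21% lower. These few genes are not read as a result about the list. Hk3, a hexokinase known from myeloid cells, had 163 counts in H19KO and 60 in wild type (log2 ratio 1.44, interval 1.01 to 1.90). Macrophage and leukocyte markers were also higher in sum, 708 CPM in the H19KO library against 559 CPM in the wild type. Of the 7 measured of 9, 5 had an interval above 0 and 1, Csf1r, below, against 22.2% of all genes above and 24% below. The T cell marker Cd3e had 16 counts in each library. The part of these leukocyte markers in the Hk3 value was not tested. The transporter gene Slc2a12 had 84 counts in H19KO and 37 in wild type (log2 ratio 1.18, interval 0.62 to 1.79). The aldose epimerase Galm had 378 counts in H19KO and 272 in wild type (log2 ratio 0.48). Pfkfb1, the liver-type relative of the PFKFB genes, had 36 counts in H19KO and 66 in wild type (log2 ratio -0.86, interval -1.49 to -0.26). Txnip, a glucose-induced inhibitor of glucose uptake, was far more abundant, with 36166 counts in H19KO and 29142 in wild type (log2 ratio 0.32, interval 0.30 to 0.34). Exons of the opposite-strand gene Gm15441 overlap 19.4% of the Txnip exon length.

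Of 16 other measured genes of lactate and pyruvate handling, 6 had an interval above 0 and 3 below, against 22.2% of all genes above and 24% below. Among the 3 below was Dlat, another subunit of pyruvate dehydrogenase named after its values were seen, with a log2 ratio of -0.23. Emb, an ancillary protein of monocarboxylate transporters, had 1085 counts in H19KO and 782 in wild type (log2 ratio 0.48, interval 0.35 to 0.61). Pdp1, the phosphatase that reverses the action of the PDK enzymes, had 1797 counts in H19KO and 1443 in wild type (log2 ratio 0.32, interval 0.22 to 0.43), the same side as Pdk1 and Pdk4. The dehydrogenase of D-lactate, Ldhd, had 337 counts in H19KO and 251 in wild type (log2 ratio 0.43, interval 0.19 to 0.67). Exons of the opposite-strand gene Znrf1 overlap 42.2% of its exon length, so its count is less certain.

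In the side routes of glucose no measured gene lay beyond 1.5-fold, and with 1.8% of all genes higher and 1.21% lower beyond it, nothing is read from that. In the pentose phosphate pathway 4 of 8 measured genes had an interval above 0 and 1 below, against 22.2% of all genes above and 24% below. Pgd, a NADPH-making dehydrogenase, had 2771 counts in H19KO and 2044 in wild type (log2 ratio 0.45, interval 0.36 to 0.53). The log2 ratio was 0.33 for H6pd, which starts the route in the endoplasmic reticulum, 0.24 for the transaldolase Taldo1 and -0.09 for the transketolase Tkt. Of 14 glycogen genes, 4 were above and 1 below, against the same 22.2% and 24% of all genes. The muscle-type phosphorylase Pygm had 567 counts in H19KO and 385 in wild type (log2 ratio 0.57, interval 0.38 to 0.76). The part of the smooth muscle markers, which were also higher in sum, in the Pygm value was not tested. Log2 ratios were 0.29 for the liver-type phosphorylase Pygl and 0.39 for the glycogen-targeting subunit Ppp1r3c. Gluconeogenesis was represented by 5 measured genes, with log2 ratios of 0.31 for the mitochondrial Pck2 and -0.23 for the ubiquitous glucose-6-phosphatase G6pc3.

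**Figure D5:**
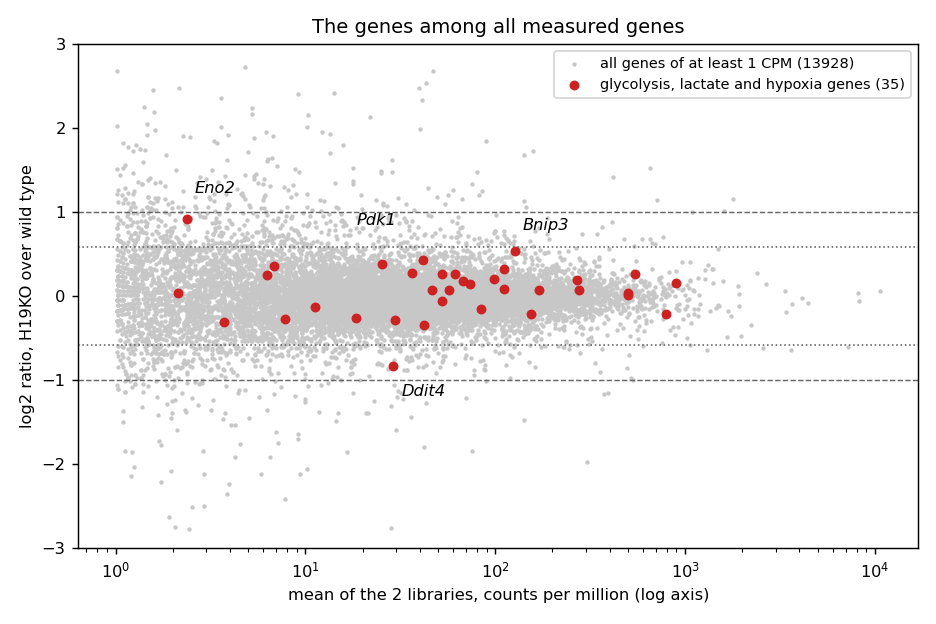
Log2 ratio of H19KO over wild type against the mean level (CPM, log axis) for all 13928 genes of at least 1 CPM (grey, 14 beyond the plotted range) and the 35 glycolysis, lactate and hypoxia genes (red), 1 library per genotype; dotted and dashed lines mark 1.5-fold and 2-fold. The red points lie within the grey cloud, with Ddit4 and Eno2 outside the central 95% of all genes, which runs from -0.67 to 0.79. Among genes of at least 20 CPM, a minimum chosen after the values were seen, the central 95% runs from -0.48 to 0.50. There Ddit4 and Bnip3 lie outside it.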

How the data were processed

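The deposited table gives whole-number counts per gene symbol made by the authors for 2 ovary libraries. Per the labels' protocols, ribosomal RNA was removed and stranded libraries were read as 76-base pairs. Per the submitters' processing notes, the build was mm10 and the tools, in unstated roles, included STAR 2.5.0a, Cufflinks 2.2.1 and also DESeq2 1.0.0. No source used here states the counting rule or its strand setting. Median-of-ratios size factors of the deposited counts were both 1, so an earlier scaling by the authors is possible and would put the counting intervals slightly off.

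Scaling was by TMM (edgeR 4.0.16, R 4.3.3); log2 ratios add 0.5 to scaled counts. Intervals are 95% Clopper-Pearson intervals of the conditional binomial share. Positions, exon lengths and transcripts are from GENCODE M21 on mm10, and promoters from RefSeq (GRCm38.p6). The interval code was tested on simulated data. With 1 library per genotype no test was run. Genes, lists and rules were chosen with earlier results of these data known. All members were to be named, with genes of each other list past 2-fold and up to 4 more by the nearer interval bound. Some genes that this rule selects are not reported here. Alternatives used DESeq2 1.42.0 size factors, total counts, library sizes without the 10 most abundant genes, other filters, and 5 as the added count. Intervals came from scipy 1.17.1, tables from pandas 2.3.3 and figures from matplotlib 3.10.9 under Python 3.11.15.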

Additional observations from a re-analysis of the deposited data

How the results depend on the processing

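The counts of genes beyond 2-fold and 1.5-fold were the same under total count scaling, median-of-ratios scaling, library sizes without the 10 most abundant genes, no low count filter and minimums of 5 and 20 CPM. With the ratio alone and no interval, 1 gene, Eno2, was higher beyond 1.5-fold, since that rule ignores counting error. The number of intervals above 0 ranged from 17 to 19 and below 0 from 6 to 7; under median-of-ratios scaling Ldha and Hif1a no longer excluded equality. The median of the genes ranged from 0.07 to 0.09, the mean being 0.07. All 256 values of named genes under other scalings or 5 added counts stayed inside their intervals and kept their sign where the interval excluded 0. Exon length matters more: with the longest transcript, 26 of 36 levels per kilobase left their counting interval, as a shorter length must raise them. The per-kilobase shares of gene pairs rest on the same exon lengths and were not recomputed with the longest transcript. No paired analysis was possible because neither genotype had a second library, and none could be omitted. Depth limits Eno2, Slc2a4 and Egln3, where intervals were widest among the 35.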
